A study of Mus musculus with 10 samples.

Results

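The genes examined here encode the enzymes that build cholesterol and fatty acids, together with the proteins that control sterol synthesis, and they were read in macrophages sorted from mouse mammary tumours. A gene belonged to the set when its symbol was 1 of 32 listed symbols and stood in the tables of all 10 libraries. All 32 were found among 21938 protein-coding genes, 21 in a sterol arm and 11 in a fatty acid arm. The rule itself reads no measured value, but the symbols were listed with earlier results of these data known. All 32 passed the filter of 10 reads in 3 libraries. Every mouse was C57BL/6 and received PyMT cells, mammary tumour cells transformed by the polyoma virus middle T antigen, in 2 mammary glands, and the tumours grew for 5 weeks before sorting. The control group had 3 libraries from WT mice carrying WT tumour cells. The Mertk KO group had 4 libraries from macrophage-specific MerTK KO mice carrying WT tumour cells, and Mertk is a receptor by which macrophages engulf dying cells. The Ptdss1 knockdown group had 3 libraries from WT mice whose tumour cells had reduced Ptdss1, a synthase of phosphatidylserine, the lipid that marks dying cells. The labels give neither the Cre driver of the knockout nor the age of the mice, and they do not state that the libraries of a group were different animals. The p-values reflect only how far these libraries scatter, part of which may be technical.

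Cholesterol is built from acetyl-CoA through mevalonate and isoprenoid units to squalene, which is closed into lanosterol and then trimmed step by step. When sterol in the endoplasmic reticulum is low, Scap escorts the precursor of the transcription factor SREBP2, the product of Srebf2, to the Golgi for cleavage, and Insig proteins hold Scap back when sterol is plentiful. Fatty acids are built from the same acetyl-CoA by acetyl-CoA carboxylase and fatty acid synthase, then lengthened by elongases and given double bonds by desaturases. Macrophages that take up dying cells receive cholesterol and fatty acids with them, and both arms are known for their response to that supply.

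Library totals ran from 10292592 recovered reads in Mertk KO 1 to 25815071 in Ptdss1 knockdown 3. Ptdss1 knockdown 1 and control 2 detected the fewest genes. They had 10 or more reads for 6995 and 9066 genes, against 9585 in Mertk KO 3 and up to 11523 elsewhere. Some genes with 10 reads in at least 7 of the other libraries fell under 10 reads in a library. That share was 31.47% in Ptdss1 knockdown 1, 13.07% in control 2, 8.60% in Mertk KO 3 and 5.75% in Mertk KO 4. Control 2 was thus not sharply set off from Mertk KO 3 by detection. Of the 32 members, 12 had fewer than 10 reads in Ptdss1 knockdown 1 and 4 did in control 2. Mertk KO 4 had 6 such members and Mertk KO 3 had 4, with 0 to 2 in the remaining libraries. All 10 macrophage markers were read in every library, with a summed level of 399632 to 774427 normalised reads. The adipocyte genes Adipoq, Cidec, Pck1 and Car3 and the milk protein genes Csn2, Csn3, Wap and Lalba were at 0 in all 10 libraries. Of the full lists, 1 of 10 adipocyte and 6 of 12 mammary epithelial and tumour cell markers passed the filter. Among these, Lpl had 39 to 3285 reads over libraries, Cdh1 5 to 1849 and Krt8 0 to 1535. Mertk itself lay at log2 levels of 8.95 to 10.63 in Mertk KO and 9.26 to 10.97 in controls, and a value over the whole gene cannot show a deletion of part of it. In bulk RNA, fewer cells that express a gene and less RNA per cell cannot be told apart.

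Levels below are log2(normalised reads + 1), and levels compared between genes are medians over the 10 libraries in normalised reads per kilobase (kb) of the principal transcript. The mevalonate steps held the most and some of the least abundant sterol members. Pmvk, phosphomevalonate kinase, had 988 normalised reads per kb. Fdps, which makes farnesyl diphosphate, had 659. Idi1, which interconverts the isoprenoid units, had 213 and Hmgcs1, which makes the precursor of mevalonate, had 182. Mvd, the decarboxylase of the route, had 142, mevalonate kinase Mvk had 46.6, and the acetyl-CoA thiolase Acat2 had 21.6. The order was steep at its ends and close in its middle, where the ranges of Idi1 (15.6 to 442) and Hmgcs1 (124 to 845) over libraries overlapped.

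Among the enzymes from squalene to cholesterol, Msmo1, the sterol methyl oxidase, led with 544 normalised reads per kb. Cyp51, the lanosterol demethylase, followed with 137, squalene epoxidase Sqle with 107 and squalene synthase Fdft1 with 105. The late enzymes Nsdhl, Dhcr7 and Sc5d had 95.8, 67.3 and 65.8. Hsd17b7, the ketoreductase of the demethylation complex, had 18.4. Lss, which closes squalene epoxide into lanosterol, had the lowest level of the sterol arm at 16.8. Among the controllers, Insig2 had 182, Insig1 148, Srebf2 106, the sterol carrier Stard4 75.5 and Scap 71.7. Over libraries, the ranges of any neighbours in the order of levels overlapped in both arms.

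**Figure D1:**
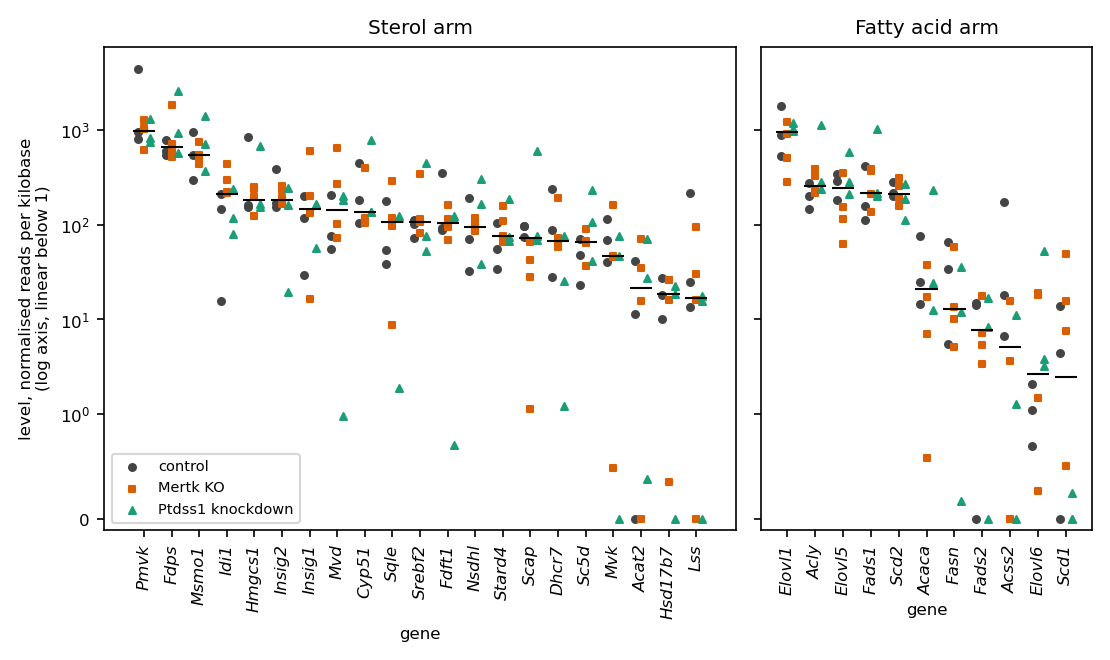
Level of each member in each of the 10 libraries, in normalised reads per kb of the principal transcript on an axis that is logarithmic above 1 and linear below it, with the sterol arm and the fatty acid arm in separate panels and 1 symbol per group. Pmvk (median 988) and Elovl1 (946) lead their arms, while Lss (16.8) and Scd1 (2.45) lie lowest.

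The fatty acid arm split into a high and a low class. Elovl1, an elongase of very long saturated and monounsaturated chains, had 946 normalised reads per kb. Acly, which cleaves citrate to supply cytosolic acetyl-CoA, had 257, and Elovl5, an elongase of polyunsaturated chains, had 247. The desaturases Fads1 and Scd2 had 215 and 210. All others were at or below 20.8. Acaca, the acetyl-CoA carboxylase that commits carbon to the route, had 20.8 and Fasn, the synthase that builds palmitate, had 12.8. Fads2, the first desaturase of the polyunsaturated route, had 7.81. Acss2, which makes acetyl-CoA from acetate, had 5.14, Elovl6, which lengthens palmitate, had 2.64, and the stearoyl-CoA desaturase Scd1 had 2.45.

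Pairs of genes with like roles were ordered alike in nearly every library. Scd2 was above Scd1 per kb in 10 of 10 libraries, with a median ratio of 24.1 (range 3.28 to 620) over the 6 libraries with 3 or more Scd1 reads. Fads1 was above Fads2 in 10 of 10, with a median ratio of 27.0 over 8 libraries (range 7.71 to 118). Elovl1 and Elovl5 were each above Elovl6 in 10 of 10, with median ratios of 254 and 74.7 over 9 libraries. Acly was above Acss2 in 9 of 10 libraries, with a median ratio of 25.1 over 7. The exception was control 2, where the ratio was 0.838. The ratios ran over a wide range, and the lower gene of each pair had few reads. Scd1 had 83, 0 and 29 reads in controls 1 to 3, 25, 93, 3 and 294 in Mertk KO 1 to 4, and 0, 0 and 2 in Ptdss1 knockdown 1 to 3. Scd1 and Scd2 are close in sequence, and the counting could have split reads between them.

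**Figure D2:**
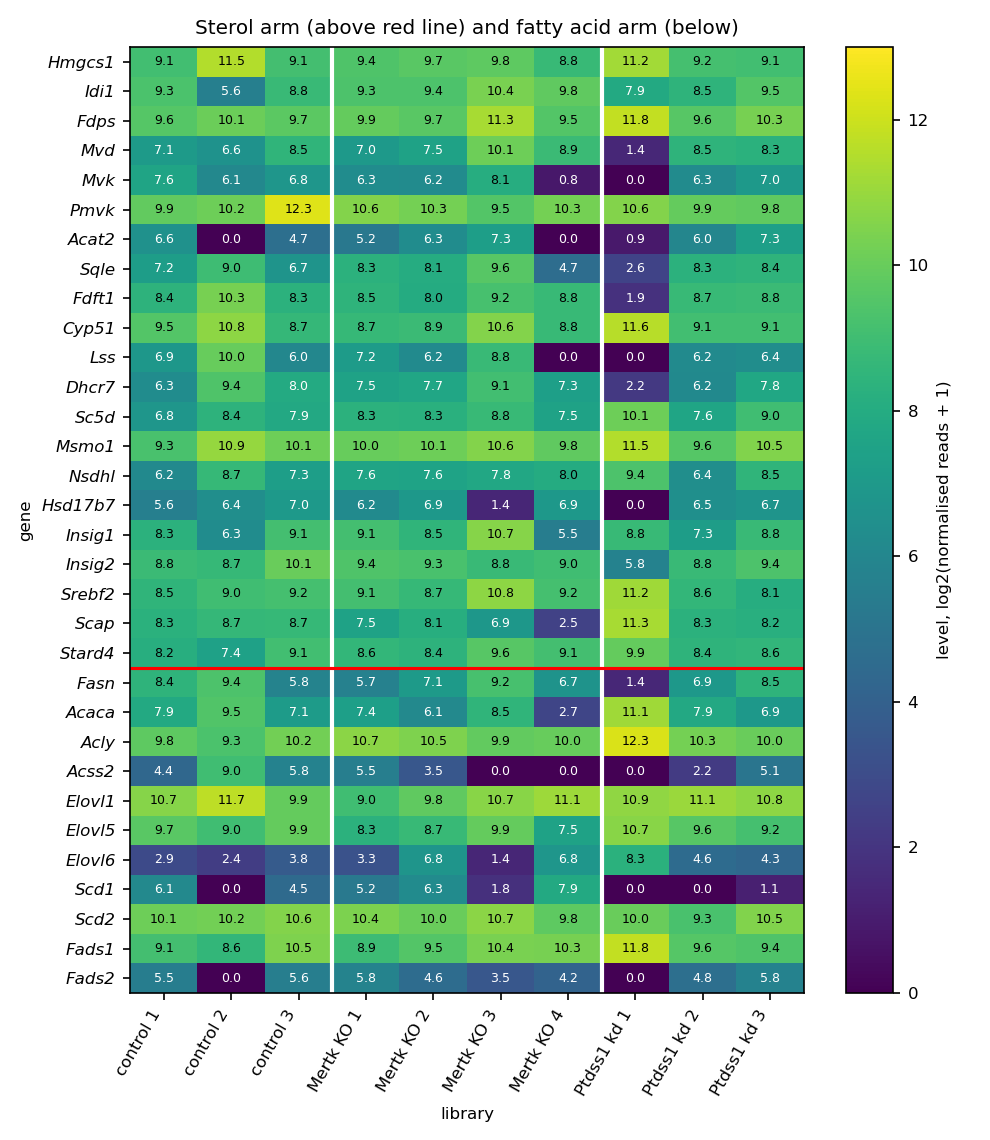
Level of each of the 32 members in each of the 10 libraries as a colour scale in log2(normalised reads + 1), with the sterol arm above the line and the fatty acid arm below it. Ptdss1 knockdown 1 has 12 members under 10 reads beside others at their highest, and Acss2, Scd1, Elovl6 and Fads2 are low in most libraries.

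The mean over the 21 sterol members was 7.97, 8.29 and 8.38 on the log2 scale in controls 1 to 3. It was 8.28, 8.28, 9.01 and 6.91 in Mertk KO 1 to 4, and 6.66, 8.0 and 8.55 in Ptdss1 knockdown 1 to 3. Mertk KO 3 was highest and Ptdss1 knockdown 1 and Mertk KO 4 were lowest, and the groups overlapped. The group means were 8.22 ± 0.22 (SD, n = 3) in control, 8.12 ± 0.88 (SD, n = 4) in Mertk KO and 7.74 ± 0.97 (SD, n = 3) in Ptdss1 knockdown. The difference from control was -0.10 in Mertk KO, -0.39 without Mertk KO 3 and 0.31 without Mertk KO 4. In Ptdss1 knockdown it was -0.48, and 0.06 without Ptdss1 knockdown 1. Both signs turned with the summary. Over the 12 sterol members with 10 reads in every library, the mean was 8.62, 8.97 and 9.27 in controls. It was 9.18, 9.06, 9.88 and 8.77 in Mertk KO 1 to 4, and 9.97, 8.58 and 9.22 in Ptdss1 knockdown 1 to 3. The control group was then lowest on average, as it was for the median over all sterol members.

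The mean over the 11 fatty acid members was 7.69, 7.19 and 7.6 in controls 1 to 3. It was 7.31, 7.54, 6.92 and 7.0 in Mertk KO 1 to 4, and 6.95, 6.92 and 7.43 in Ptdss1 knockdown 1 to 3. The groups overlapped here too. Group means were 7.49 ± 0.27 (SD, n = 3) in control, 7.19 ± 0.29 (SD, n = 4) in Mertk KO and 7.10 ± 0.28 (SD, n = 3) in Ptdss1 knockdown. The difference from control was -0.30 in Mertk KO and -0.39 in Ptdss1 knockdown. For the knockdown the sign turned with the summary: the difference was 0.60 for the median over members and 0.40 for the 5 members with 10 reads in every library.

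The sterol mean minus the fatty acid mean shows whether the arms moved apart between libraries, and its zero has no meaning because gene lengths differ. It was 0.28, 1.10 and 0.78 in controls, 0.97, 0.73, 2.09 and -0.09 in Mertk KO, and -0.29, 1.08 and 1.13 in Ptdss1 knockdown. The widest gap and the next to narrowest both lay within the Mertk KO group. The group values were 0.72 ± 0.41 (SD, n = 3), 0.93 ± 0.90 (SD, n = 4) and 0.64 ± 0.80 (SD, n = 3). Differences between groups, at most 0.29, were smaller than the spread within them, and that of Mertk KO from control, 0.21, was -0.18 without Mertk KO 3. The arm means gave a Pearson r of 0.33 and a Spearman rho of 0.05 over 10 libraries, and 0.14 and -0.14 over the 8 libraries without control 2 and Ptdss1 knockdown 1, as a description of points that share depth and library.

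**Figure D3:**
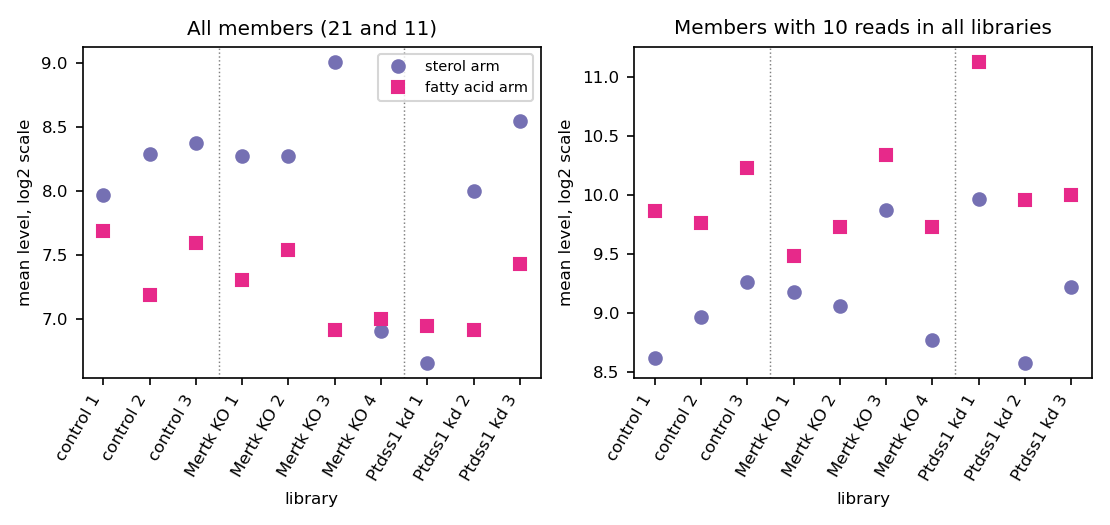
Mean level of the sterol arm (circles) and the fatty acid arm (squares) in each library on the log2(normalised reads + 1) scale, over all members in one panel and over the 12 and 5 members with 10 reads in every library in the other. The sterol mean over all members is highest in Mertk KO 3 (9.01) and lowest in Ptdss1 knockdown 1 (6.66). Over the 12 sterol members it is highest in Ptdss1 knockdown 1 (9.97), followed by Mertk KO 3 (9.88).

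The comparison of Mertk KO with control asks whether macrophages that lack the receptor read these genes at another level. No member passed the test: 0 of 32 had an adjusted p under 0.05 by limma, and 0 did with limma-voom on the recovered reads. Over all genes 2 of 11564 were called, which is 0.0173%. At an unadjusted p under 0.05 there was 1 member, against 2.06% of all genes, and every adjusted p of a member was 1.0. Fold changes were positive for 11 and negative for 10 sterol members with a median of 0.02 on the log2 scale, the same as the median of all genes, of which 50.9% were positive. They were positive for 5 and negative for 6 fatty acid members with a median of -0.06. By role, the median was 0.33 for the 7 mevalonate genes, 0.52 for the 5 controllers and 0.60 for the 4 desaturases. It was -0.59 for the 3 elongases and -1.34 for the 4 genes of acetyl-CoA supply and chain synthesis. Without control 2, these medians were 0.31, -0.27, -0.06, -0.12 and -0.63 in the same order, and that of the sterol arm was 0.31. Without Mertk KO 3, the median was -0.07 for the mevalonate genes and 0.05 for the controllers.

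Summed levels of some markers of other cells differed between the same groups. The summed level of the 12 mammary epithelial and tumour cell markers was 1021 to 2724 normalised reads in Mertk KO, 325 to 585 in control and 5 to 945 in Ptdss1 knockdown. The 6 NK cell markers summed to 226 to 789 in Mertk KO, 1659 to 3380 in control and 969 to 2167 in Ptdss1 knockdown. The 12 proliferation genes summed to 2592 to 3723 in Mertk KO, 3917 to 10179 in control and 1703 to 8831 in Ptdss1 knockdown. Mean log2 levels over the same lists overlapped between Mertk KO and control: 1.45 to 2.53 against 1.08 to 2.45 for the epithelial list, 1.51 to 4.66 against 3.41 to 7.08 for NK cells, and 2.7 to 6.76 against 5.62 to 9.0 for proliferation. In the epithelial list Cdh1 was at log2 levels of 9.76 to 10.55 in Mertk KO and 8.29 to 8.75 in control. Krt8 had 69, 83, 1 and 1535 reads in Mertk KO 1 to 4 and 54, 0 and 98 in controls. Krt18 had 0, 52, 0 and 647 in Mertk KO and 158, 0 and 27 in controls, while Krt19 and Epcam were at 0 in both groups. The part of such other cells in the values of the members was not tested.

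Idi1 (ENSMUSG00000058258, plus strand of chr13:8885501-8892451, GRCm38) was the member with the unadjusted p under 0.05. Its log2 level was 9.32, 5.59 and 8.80 in controls 1 to 3 and 9.35, 9.39, 10.39 and 9.82 in Mertk KO 1 to 4. The groups did not overlap, though control 1 and Mertk KO 1 were nearly level and control 2 lay far below the rest. Over all genes 3.00% had Mertk KO wholly above control. The difference was 1.84 (SE 0.87, 95% interval 0.01 to 3.67, unadjusted p = 0.0493, adjusted p = 1.0 by limma), and it was 0.68 without control 2.

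Scap (ENSMUSG00000032485, plus strand of chr9:110333288-110384950, GRCm38) was the other member whose groups did not overlap, with Mertk KO lower, as for 2.62% of all genes. Its log2 level was 8.30, 8.67 and 8.69 in controls and 7.49, 8.14, 6.89 and 2.54 in Mertk KO 1 to 4. Mertk KO 4, with 6 reads, was far below the others, which had 122 to 343. The difference was -2.29 (SE 1.33, 95% interval -5.08 to 0.50, adjusted p = 1.0 by limma), and it was -1.05 without Mertk KO 4. Srebf2, whose product Scap escorts, was 8.52, 9.03 and 9.17 in controls and 9.10, 8.71, 10.78 and 9.18 in Mertk KO, a difference of 0.54 (SE 0.76) that was 0.09 without Mertk KO 3.

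Acss2 had the most negative fold change of the members and is singled out for that after its values were seen. It had 24, 492 and 73 reads in controls 1 to 3 and 31, 13, 0 and 0 in Mertk KO 1 to 4. The groups overlapped, through control 1 and Mertk KO 1. The difference was -4.11 (SE 1.96, unadjusted p = 0.0508, adjusted p = 1.0 by limma), and it was -2.59 with a pseudocount of 8 and -2.79 without control 2. Acss2 shares 395 exonic bases with Gss and 197 with Ggt7 on the opposite strand, and the libraries do not mark strand. Fasn had 423, 635 and 75 reads in controls and 35, 167, 731 and 128 in Mertk KO, a difference of -0.69 (SE 1.69) that was 0.06 without control 2.

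The comparison of Ptdss1 knockdown with control asks about macrophages in tumours whose cells make less phosphatidylserine by this synthase. By limma 0 of 32 members were called, as were 0.0% of all genes, and limma-voom called 0. At an unadjusted p under 0.05 there were 0 members, against 2.90% of all genes. Adjusted p-values of members ran from 0.841 to 0.995. Sterol members had 11 positive and 10 negative fold changes with a median of 0.26, and fatty acid members 6 and 5 with a median of 0.16, beside a median of -0.05 over all genes, of which 48.0% were positive. Without Ptdss1 knockdown 1 the arm medians were -0.05 and -0.13, and without control 2 they were -0.44 and 0.04. Without control 2 and Ptdss1 knockdown 1, 15 of the 32 fold changes had the other sign.

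Elovl6 had the most positive value and was the member whose groups did not overlap in this comparison, with the knockdown higher, as for 3.32% of all genes. There were 0 members with the knockdown wholly below control, against 3.6% of all genes. Its log2 level was 2.91, 2.37 and 3.75 in controls and 8.29, 4.56 and 4.32 in Ptdss1 knockdown 1 to 3. Those levels rest on 8, 4 and 17 reads in controls and 359, 24 and 31 in the knockdown. The difference was 2.71 (SE 2.00, 95% interval -1.49 to 6.92, adjusted p = 0.841 by limma), and it was 1.43 without Ptdss1 knockdown 1.

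Several values in this comparison rested on control 2 and Ptdss1 knockdown 1. Lss had 142, 979 and 87 reads in controls 1 to 3 and 0, 77 and 135 in Ptdss1 knockdown 1 to 3. The log2 difference of -3.43 (SE 2.32) was -0.15 without control 2 and Ptdss1 knockdown 1. Fdft1 had 3 reads in Ptdss1 knockdown 1 against 454 and 745 in the other knockdown libraries, and it shares 774 exonic bases with Ctsb on the opposite strand. In the same library Scap reached 11.31, Acaca 11.13, Acly 12.28 and Fads1 11.81, each the highest of 10. Ptdss1 knockdown 1 was highest for 8 and lowest for 7 of the 21 sterol members, and over all genes it was highest for 28.8% and lowest for 30.8%.

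Mertk KO and Ptdss1 knockdown, the receptor side and the lipid side, were also compared directly. By limma 0 of 32 members were called, as were 0.0% of all genes, and limma-voom called 0. At an unadjusted p under 0.05 there were 2 members, Scap and Scd1, against 3.73% of all genes, and the lowest adjusted p of a member was 0.805. Sterol members had 12 positive and 9 negative fold changes with a median of 0.16, fatty acid members 4 and 7 with a median of -0.48, and all genes a median of 0.11 with 54.0% positive. Without Mertk KO 3 the arm medians were -0.25 and -0.09. Without Ptdss1 knockdown 1, 17 of the 32 had the other sign.

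Scap was lower in every Mertk KO library (2.54 to 8.14) than in every knockdown library (8.19 to 11.31), as were 2.32% of all genes, with Mertk KO 2 and Ptdss1 knockdown 3 nearly level. The difference was -3.02 (SE 1.33, unadjusted p = 0.0355, adjusted p = 0.805 by limma), and it was -2.01 without Ptdss1 knockdown 1 and -1.78 without Mertk KO 4. Scd1 was higher in every Mertk KO library than in every knockdown library, as were 2.91% of all genes. The closest pair had 3 and 2 reads. The difference was 4.91 (SE 1.90, unadjusted p = 0.0189, adjusted p = 0.805 by limma) and depended on the pseudocount, being 2.73 with 8 in place of 1. Scd2, the abundant relative of Scd1, was 9.77 to 10.73 in Mertk KO and 9.26 to 10.53 in the knockdown, and these ranges overlapped.

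**Figure D4:**
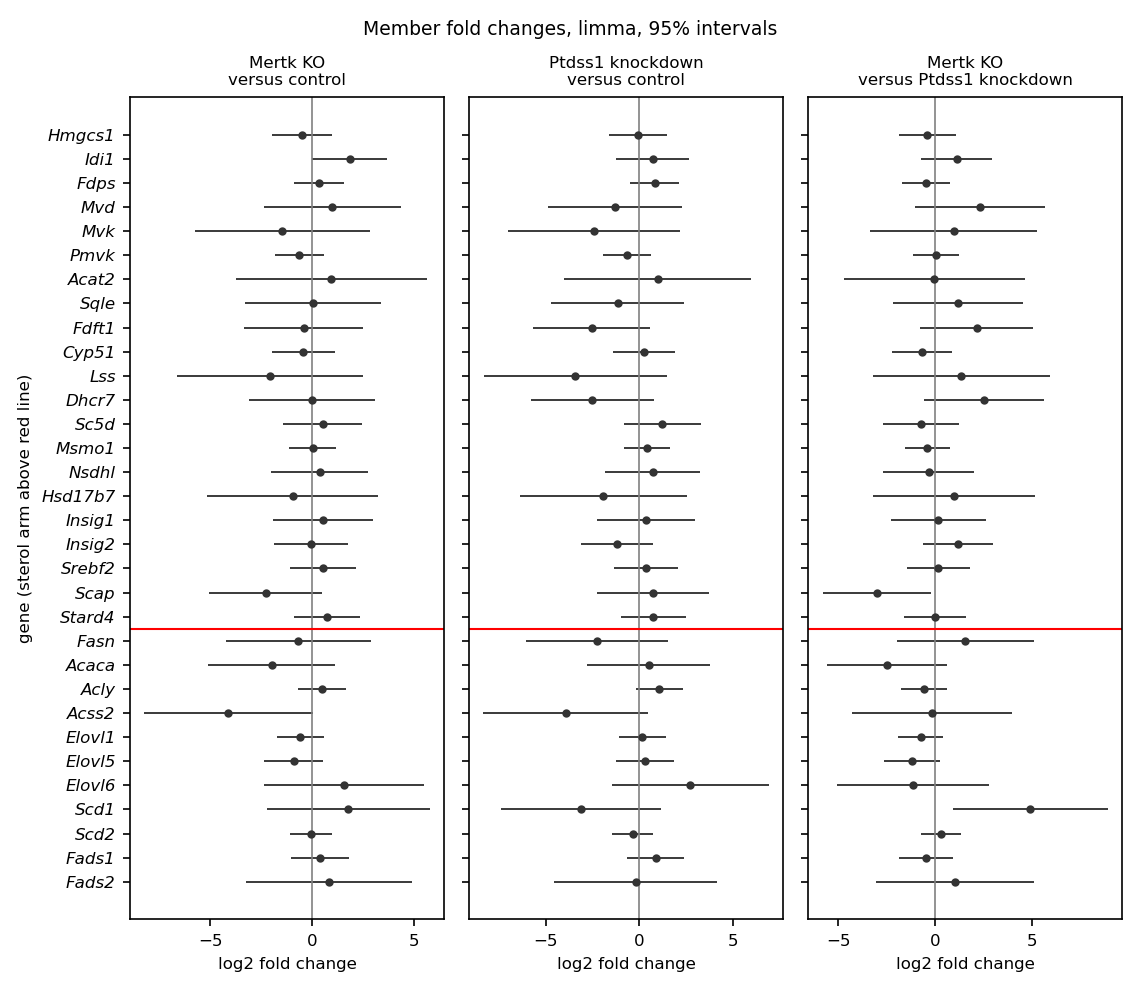
Difference in mean log2(normalised reads + 1) for each member in the 3 comparisons, with limma's 95% intervals and a vertical line at no difference. No member is called in any comparison, and the intervals of Idi1 in Mertk KO against control and of Scap and Scd1 in Mertk KO against Ptdss1 knockdown are those that exclude 0.

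The mean over all sterol members was highest in 1 Mertk KO library and low in another. This was noticed in the data, and the values are a description with no test. Among the 8 libraries without control 2 and Ptdss1 knockdown 1, Mertk KO 3 held the highest value for 14 of 21 sterol members, where it held the highest value for 21.4% of all genes. The median over sterol members of its level minus the median of the other 7 libraries was 1.07 on the log2 scale, against -0.13 over all genes. Of the 21, 17 were above that median, as were 45.9% of all genes. It was lowest for 2 of 21, against 25.5% of all genes. With all 10 libraries counted, Mertk KO 3 was highest for 5 of 21, against 10.8% of all genes.

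The members that stood out in Mertk KO 3 ran along the whole route. Lss lay 2.55 above the median of the other 7 libraries, Mvd 1.82, Mvk 1.78, Cyp51 1.73, Fdps 1.65, Dhcr7 1.61 and Sqle 1.57. Insig1 lay 2.15 above it and Srebf2 2.06. Insig1 itself is a well known target of SREBP2, and its log2 level was 10.66 in Mertk KO 3 against 5.49 to 9.09 in the other 7. Fdps shares 1124 exonic bases with the gene model Gm43738 on the same strand, so its reads could be split. Exceptions were Hsd17b7, at 1.39 against 5.59 to 6.98, Pmvk at -0.74, Insig2 at -0.48 and Scap at -1.30 relative to that median.

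The fatty acid arm did not follow as a block in that library, with a median deviation of 0.05. Fasn lay 2.29 and Acaca 1.39 above the median of the other 7, whereas the deviation was -4.36 for Acss2, -3.46 for Scd1, -2.93 for Elovl6 and -1.99 for Fads2. Those 4 are the members of lowest level. Mertk KO 3 was highest for 4 of 11 fatty acid members.

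Mertk KO 4 was lowest of the 8 libraries for 8 of 21 sterol members, against 19.1% of all genes. It was highest for 0 of 21, against 20.3%. By its mean level, 6.91, the sterol arm was lowest there among the 8 libraries, but not by its median deviation. Its median deviation was -0.31, with 8 of 21 members above the median of the other 7 libraries. That median deviation was -0.44 in control 1 and -0.32 in Ptdss1 knockdown 2. In Mertk KO 4, Lss and Acat2 had 0 reads, Mvk 1, Scap 6, Sqle 30 and Insig1 55. Relative to the median of the other 7 libraries, Lss was at -6.39, Acat2 at -6.30, Mvk at -5.99, Scap at -5.65, Sqle at -3.69 and Insig1 at -3.31. Hmgcs1, Fdps, Cyp51 and Msmo1, members of higher level, lay between -0.41 and -0.20. Acaca, with 7 reads, was at -4.63, whereas Scd1 lay 3.41 and Elovl6 3.10 above the median.

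Mertk KO 3 and Mertk KO 4 read fewer common genes than most. Of genes with 10 reads in at least 7 of the other libraries, 8.60% fell under 10 reads in Mertk KO 3 and 5.75% in Mertk KO 4, against 0.11% to 1.28% in the other 6 of these 8. Marker sums also differed. The summed level of the mammary epithelial and tumour cell list was 1560 normalised reads in Mertk KO 3 and 2724 in Mertk KO 4, against 513 to 1049 in the other 6, with Cdh1 at log2 levels of 10.55 and 9.93 and Krt8 at 1 and 1535 reads. The fibroblast sum, from 8 markers of which 3 passed the filter, was 2 in Mertk KO 3 and 1056 in Mertk KO 4. The NK cell sum was 226 and 539, and the proliferation sum was 3264 and 2883. Lyz2, the abundant macrophage marker, had 307086 and 437752 reads. The part of detection and of other cells in these differences was not tested.

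**Figure D5:**
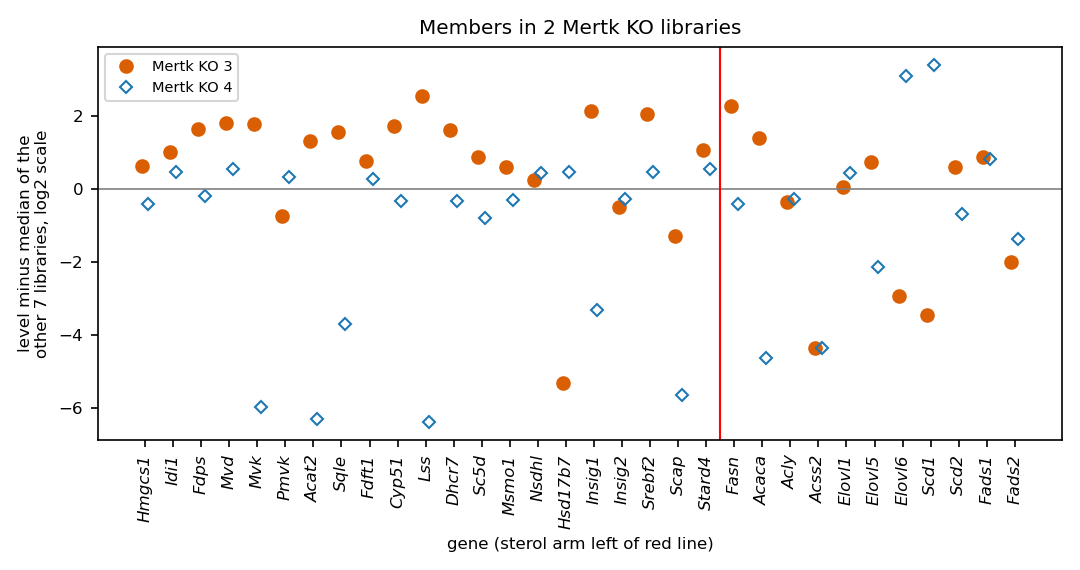
Level of each member in Mertk KO 3 and in Mertk KO 4 minus the median of the other 7 libraries, on the log2 scale, without control 2 and Ptdss1 knockdown 1 and with the sterol arm left of the line. In Mertk KO 3, 17 of 21 sterol members lie above 0, and in Mertk KO 4 Lss, Acat2, Mvk, Scap and Acaca lie lowest.

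Promoters of some members are shown for the motifs through which SREBP factors and their partners NF-Y and Sp1 are known to act. RefSeq windows from 250 bases before to 50 bases after the gene start (GRCm38.p6) were matched for 25 members, 17 of the sterol and 8 of the fatty acid arm. The other 7, Sqle, Fdft1, Fdps, Stard4, Scd1, Scd2 and Fads1, had no window. Capitals mark the sterol regulatory element core TCACNCCAC, the CCAAT box and the GC box GGGCGG, each on either strand. The windows are chr13:119690101-119690400 (plus) for Hmgcs1, chr13:8885356-8885655 (plus) for Idi1, chr8:122443373-122443672 (minus) for Mvd and chr11:120824498-120824797 (minus) for Fasn. Hmgcs1 is shown because it alone holds all 3 motifs, Idi1 because it had the unadjusted p under 0.05, Mvd because it stood high in Mertk KO 3, and Fasn as the synthase of the other arm.
Hmgcs1: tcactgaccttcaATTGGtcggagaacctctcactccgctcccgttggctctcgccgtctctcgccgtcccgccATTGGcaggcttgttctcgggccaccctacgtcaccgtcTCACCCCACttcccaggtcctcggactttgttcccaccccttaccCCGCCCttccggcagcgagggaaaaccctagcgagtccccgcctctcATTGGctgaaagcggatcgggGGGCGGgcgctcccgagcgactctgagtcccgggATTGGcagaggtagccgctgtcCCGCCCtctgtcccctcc
Idi1: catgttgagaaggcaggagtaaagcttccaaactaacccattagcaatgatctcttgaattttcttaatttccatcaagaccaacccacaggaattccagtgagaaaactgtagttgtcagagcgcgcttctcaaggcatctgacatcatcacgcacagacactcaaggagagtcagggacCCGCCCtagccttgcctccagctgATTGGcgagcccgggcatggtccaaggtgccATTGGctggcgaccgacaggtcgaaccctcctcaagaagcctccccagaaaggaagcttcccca
Mvd: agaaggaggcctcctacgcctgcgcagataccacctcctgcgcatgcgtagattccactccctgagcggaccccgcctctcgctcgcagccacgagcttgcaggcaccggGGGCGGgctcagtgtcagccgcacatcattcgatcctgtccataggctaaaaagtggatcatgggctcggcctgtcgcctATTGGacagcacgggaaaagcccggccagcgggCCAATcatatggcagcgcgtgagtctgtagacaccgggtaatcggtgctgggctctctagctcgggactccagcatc
Fasn: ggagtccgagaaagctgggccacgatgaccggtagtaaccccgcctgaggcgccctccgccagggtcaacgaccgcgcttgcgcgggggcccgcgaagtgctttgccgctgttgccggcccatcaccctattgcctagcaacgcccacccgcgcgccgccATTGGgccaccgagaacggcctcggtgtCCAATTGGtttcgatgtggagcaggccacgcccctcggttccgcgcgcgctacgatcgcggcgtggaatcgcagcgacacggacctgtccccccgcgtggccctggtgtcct

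The Hmgcs1 window holds 1 sterol regulatory element core, 4 CCAAT boxes and 3 GC boxes. Idi1 and Mvd each hold 2 CCAAT boxes and 1 GC box. The Fasn window holds 3 CCAAT boxes, of which 2 overlap on opposite strands in CCAATTGG, and 0 GC boxes as spelled. A CCAAT box was found in 15 of 17 sterol and 5 of 8 fatty acid members, against 41.1% of 27025 genes. The GC box was found in 16 of 17 and 4 of 8, against 38.2%. The sterol regulatory element core as spelled was found in 1 of 17 and 0 of 8, against 1.44%. Other spellings of the element were not searched, so these counts do not show that the other members lack one. Because 15 of 17 sterol windows hold a CCAAT box, its presence cannot separate the members high in Mertk KO 3 from the others. Lss, Insig1, Srebf2, Cyp51 and Dhcr7, which were high there, hold one. Hsd17b7, Pmvk and Insig2, which were below the median of the other libraries there, hold one as well. A match is a description of letters and not of binding.

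The other genes of the pathways, from a list of 16 on the sterol side and 25 on the fatty acid side, gave the same count. All 16 and 15 of the 25 were tested, and 0 were called in any comparison by limma or by limma-voom. At an unadjusted p under 0.05 there were 0 in Mertk KO against control, 1 in Ptdss1 knockdown against control (Lbr) and 2 in Mertk KO against Ptdss1 knockdown (Npc2 and Acsl4). In Mertk KO against control, 14 of the 16 sterol-side genes had positive fold changes with a median of 0.27, and 50.9% of all genes were positive. Without control 2 it was 10 of 16 with a median of 0.09, and 45.5% of all genes. Mertk KO 3, highest for 14 of the 21 sterol members, was highest of the 8 libraries for 1 of these 16.

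In Ptdss1 knockdown against control, Lbr, a sterol reductase of the nuclear envelope, was 9.53, 4.38 and 9.25 in controls and 11.64, 9.58 and 9.38 in the knockdown. The difference was 2.48 (SE 1.15, unadjusted p = 0.0453, adjusted p = 0.841 by limma), and control 2 and Ptdss1 knockdown 1 held its lowest and highest values. It was 0.81 without control 2 and 0.09 without both. Tm7sf2, the other reductase of that step, had 269, 227 and 183 reads in controls and 0, 74 and 175 in the knockdown, a difference of -3.29 (SE 1.75) that was -1.14 without Ptdss1 knockdown 1. Srebf1, which encodes the SREBP that favours fatty acid genes, was 8.84, 5.90 and 9.43 in controls, 8.43 to 8.95 in Mertk KO, and 2.99, 8.58 and 8.74 in the knockdown. Its 2 lowest values were in control 2 and Ptdss1 knockdown 1.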

How the data were processed

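RNA from sorted macrophages was copied and amplified with a SMART-Seq v4 low-input kit and made into ThruPLEX libraries, which do not mark strand, per the labels' protocols. The submitters' processing notes name STAR, RSEM and mm10. The authors deposited 1 table per library whose values, written with a decimal comma, were read as log2 of normalised reads plus a pseudocount of 1, since no header states the unit. Undoing the log2 gave equal steps, and dividing by them gave whole reads within 0.01 for 100% of values up to 1000 reads. All 21938 gene IDs matched GENCODE M21 (GRCm38, also called mm10).

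The 10 libraries entered 1 fit in limma 3.58.1 (R 4.3.3), limma-trend with robust moderation on the deposited log2 values, over 11564 genes with at least 10 reads in at least 3 libraries. Tests were two-sided with Benjamini-Hochberg adjustment over all genes at 0.05. No covariate was used, since the labels give no batch. Levels per kb divide by the APPRIS principal transcript. Depth was 10292592 to 25815071 reads, without molecular identifiers, so amplified reads are not independent molecules. Fold changes of genes with few reads depend on the pseudocount.

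The members, their arms and the lists were chosen with earlier results of these data known. All 32 members could be named, and 10 were followed through the alternatives, Acss2 among them after its values were seen. The alternatives were other size factors, filters, pseudocount and moderation, limma-voom on recovered reads, only the compared groups, other arm summaries, and leaving out libraries. The fit was tested on simulated data with large changes in well-read genes and the same spread set for every gene. That test cannot show how large a change would be called in these libraries. Marker lists covered macrophages, adipocytes, mammary epithelium, fibroblasts, endothelium, T, NK, B and dendritic cells, neutrophils and proliferation. Promoter sequences are from RefSeq (GRCm38.p6).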

Additional observations from a re-analysis of the deposited data

Results flagged for a closer look

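Within the 4 Mertk KO libraries, Dixon's test flagged 2 of the 35 values examined, and chance flags about 1 in 20. Both lay in Mertk KO 3. Cyp51 was at a log2 level of 10.6 there against 8.69 to 8.87 in the other 3, a gap of 0.904 of the group's range, where 0.829 is the critical value. Cyp51 shares 166 exonic bases with Akap9 on the opposite strand. Hsd17b7 was at 1.39, from 2 reads, against 6.24 to 6.91, a gap of 0.879 of the range.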

How the results depend on the processing

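Under 18 alternative settings no member was called in any of the 3 comparisons, and the lowest adjusted p of a member was 0.394 by limma, so the threshold was not met under any setting run. Signs were less stable. Without control 2 and Ptdss1 knockdown 1, the sign turned for 9 of 32 members in Mertk KO against control (Fasn 0.06), for 15 in Ptdss1 knockdown against control (Idi1 -0.07, Srebf2 -0.51, Scap -0.23, Fasn 0.58) and for 17 in Mertk KO against Ptdss1 knockdown (Lss -0.75, Fasn -0.52, Elovl6 0.13). With a pseudocount of 8, Acss2 was 0.03 in the last. Without control 2 alone, the sign turned for 9 of 32 members in Mertk KO against control. Without Ptdss1 knockdown 1 alone, it turned for 10 in Ptdss1 knockdown against control and 17 in Mertk KO against Ptdss1 knockdown. Gene by gene, only the 10 followed members were examined. Among these, leaving out 1 library at a time turned signs in Mertk KO against control for Pmvk (-1.08 to 0.14) and Fasn (-1.72 to 0.06). In Ptdss1 knockdown against control it did so for Idi1 (-0.43 to 1.44), Pmvk (-1.13 to 0.10), Srebf2 (-0.57 to 0.96), Scap (-0.29 to 1.27) and Elovl1 (-0.26 to 0.62). In Mertk KO against Ptdss1 knockdown it did so for Lss (-0.75 to 3.20), Pmvk (-0.10 to 0.28), Srebf2 (-0.42 to 1.11), Fasn (-0.52 to 2.99), Acss2 (-1.39 to 1.14) and Elovl6 (-1.91 to 0.13).

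The difference of fatty acid arm means in Ptdss1 knockdown against control, -0.39, became 0.60 as a median over members and 0.40 for members with 10 reads in every library. In Mertk KO against Ptdss1 knockdown, 0.09 became -1.0 and -0.54, and sterol minus fatty acid, 0.29, became 1.16 as a median. The sterol arm differences of both groups from control were negative as means over all members and positive by either other summary. The cause was not tested. Of all genes, 2 were called in Mertk KO against control, 0 with no filter or 50 reads in 3 libraries, 1 without robust moderation, and 0 to 4 without 1 library. In Mertk KO against Ptdss1 knockdown 1 was called without both libraries, and 0 otherwise. Scd1, Acss2, Elovl6 and Acat2 reached 10 reads in the fewest libraries, in 5, 6, 6 and 7 of 10. No paired analysis was possible because replicate numbers follow accession order and pair no libraries.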
